A study of Mus musculus with 4 samples.

Results

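The CXC chemokines are small, mostly secreted proteins in which a single amino acid separates the first pair of cysteines. The 10 genes described here, Cxcl1, Cxcl2, Cxcl3, Cxcl5, Cxcl9, Cxcl10, Cxcl13, Cxcl14, Cxcl16 and Pf4, were chosen by name from a table of 54532 genes, and 7 of them had at least 10 reads in at least 1 library and entered the tests with 13715 genes in all. RNA-seq was performed on wild-type mouse peritoneal macrophages, 1 library per condition, without replicates. The 4 conditions were normal medium with DMSO (the solvent control), normal medium with 10 µM CH223191 (an antagonist of the aryl hydrocarbon receptor, AHR), 30% 4T1-conditioned medium (4T1-CM) with DMSO, and 30% 4T1-CM with 10 µM CH223191. 4T1 is a mouse mammary carcinoma line, and 4T1-CM carries what those cells release into their culture medium. The study's methods describe peritoneal macrophages as cells elicited with thioglycollate in BALB/c mice, so they are inflammatory recruits to the peritoneum rather than lung macrophages, and the length of the exposure of these libraries was not given in the sources used here. The design text asks what AHR activity does in macrophages exposed to breast cancer signals, and the comparisons below ask it of the CXC chemokines.

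Macrophages are a main source of CXC chemokines in inflamed tissue. The members that carry the amino acids Glu-Leu-Arg just before the CXC motif act through the receptor CXCR2 and draw in neutrophils, and their transcription is known to be driven by NF-kB. The members without it have other receptors: CXCL9 and CXCL10 are induced by interferon and attract T cells through CXCR3, CXCL13 guides B cells through CXCR5, and CXCL16 is a membrane-bound ligand of CXCR6 that the proteases ADAM10 and ADAM17 can shed. PF4, also called CXCL4, is best known from platelet granules, and CXCL14 is expressed by many epithelia.

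The coding sequences show which of the 10 genes belong to the first class. The 24 bases around the CXC codons are printed from transcripts of GENCODE M21 (GRCm38, a C57BL/6 sequence), and the capitals mark the 3 codons before the CXC motif together with the motif itself.
Cxcl1: gccaatGAGCTGCGCTGTCAGTGC
Cxcl2: gccagtGAACTGCGCTGTCAATGC
Cxcl3: gccagtGAGCTGCGCTGTCAGTGC
Cxcl5: gcaacgGAGCTGCGTTGTGTTTGC
Cxcl10: gcaaggACGGTCCGCTGCAACTGC
Cxcl16: agtgtcGCTGGAAGTTGTTCTTGT
Pf4: gatggaGATCTTAGCTGTGTGTGT
In Cxcl1, Cxcl2, Cxcl3 and Cxcl5 the 3 codons read Glu-Leu-Arg, and in the other 6 genes, of which Cxcl10, Cxcl16 and Pf4 are shown, they do not. Cxcl2 and Cxcl3 were the nearest relatives, with 89.7% of the aligned coding positions identical, against 75.7% for Cxcl1 and Cxcl2, 72.7% for Cxcl1 and Cxcl3 and 46.2% for Cxcl1 and Cxcl5. Cxcl2 shared 5.84% of its 50-base stretches with Cxcl3, so a small share of their reads could have been counted for the other gene.

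The genes also lie together. Cxcl5, Pf4, Cxcl3, Cxcl1 and Cxcl2 are on the forward strand of chromosome 5 within 146.579 kb, from the start of Cxcl5 at 90759360 to the end of Cxcl2 at 90905938, and Ppbp and Cxcl15, which are CXC ligands too, lie among them. Cxcl9 and Cxcl10 are neighbours on the reverse strand of the same chromosome, from 92321347 to 92348889, and Cxcl13 lies further along it at 95956951 to 95961068. Cxcl14 is on chromosome 13 (56288643 to 56296551) and Cxcl16 on chromosome 11 (70453983 to 70459984). These coordinates are those of the deposited table, which names no build, and they equal GENCODE M21 for all 10 genes.

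The libraries held between 15535405 and 17557127 reads assigned to genes, so a count of 0 allows up to 0.171 to 0.189 CPM (reads scaled to library size by TMM). All 6 macrophage markers examined were read in every library, their summed level being 14013 and 18240 CPM in normal medium and 37407 and 39952 CPM in 4T1-CM (here and below DMSO first, then CH223191). Most of this sum was Lyz2, at 11889 and 15186 CPM in normal medium and 32954 and 35569 CPM in 4T1-CM. Each of the 6 was higher in 4T1-CM in both arms, but Cd68 with CH223191 by a log2 ratio of only 0.07. The neutrophil markers S100a9, Ly6g and Retnlg and the T and NK cell markers Cd3e, Cd3g and Ncr1 were at 0 reads in the 4 libraries. Of 6 fibroblast markers 5 were tested, and 4 rose with 4T1-CM in the additive fit described below. In that fit 16.4% of all genes were called higher and 16.3% lower. The summed level of the fibroblast list was 63.0, 30.1, 149 and 127 CPM in the order of conditions given above. Of 7 neutrophil markers only S100a8 (99, 190, 560 and 412 reads) and Csf3r could be tested. Both rose, beside the same 16.4% of all genes. The neutrophil list summed to 64.6, 72.8, 119 and 134 CPM. Of the dendritic cell markers Clec9a had 6, 0, 23 and 13 reads (adjusted p = 0.039 by edgeR and 0.117 by DESeq2), and it passed the read filter only through the 4T1-CM libraries, where it was high. The lists of dendritic, mesothelial and epithelial tumour cells summed to at most 2.40, 1.13 and 1.35 CPM in any library. The part of these cells in the chemokine values was not tested. In bulk RNA, more cells of a type and more RNA per cell cannot be told apart.

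In normal medium Cxcl14 was by far the most abundant CXC chemokine of these macrophages. On the RPKM scale, which divides reads by gene length and library size, it stood at 88.5 with DMSO and 97.0 with CH223191, followed by Pf4 at 6.18 and 7.15 and Cxcl16 at 5.61 and 5.02. Pf4 and Cxcl16 were close to each other in this order, and with 1 library per condition their difference cannot be set against a spread. Every other member was below 0.5 RPKM in normal medium. Cxcl14 provided 88.0% of all reads of the 10 genes with DMSO (Clopper-Pearson 95% interval 86.8 to 89.2%) and 88.9% with CH223191 (87.7 to 90.0%), and its level lay at percentile 96.3 of the genes tested in both libraries.

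In 4T1-CM the order was different. Cxcl16 led at 138 RPKM with DMSO and 150 RPKM with CH223191. Pf4 was second with DMSO at 110 RPKM and behind Cxcl14 with CH223191 at 58.5 RPKM; Cxcl14 stood at 74.5 and 81.1 RPKM. Below them came Cxcl1 (8.47 and 6.83), Cxcl2 (5.72 and 3.93), Cxcl13 (3.58 and 2.997) and Cxcl3 (2.12 and 1.21), in the same RPKM order in both libraries. The order of the last genes depends on gene length. The lengths used for Cxcl1, Cxcl2 and Cxcl3 equal their whole spans, introns included, so their RPKM can be too low. By CPM, Cxcl3 (7.43 and 4.25) lay above Cxcl13 (4.11 and 3.45). The share of Cxcl14 in the reads of the 10 genes was 20.3% (19.5 to 21.0%) with DMSO and 22.1% (21.3 to 22.9%) with CH223191. That of Cxcl16 was 62.0% (61.1 to 62.8%) and 67.4% (66.5 to 68.2%). The summed level of the 10 genes was 101 and 110 RPKM in normal medium and 342 and 304 RPKM in 4T1-CM. All these intervals cover counting error only, since reads are not independent molecules and a condition has a single library.

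**Figure D1:**
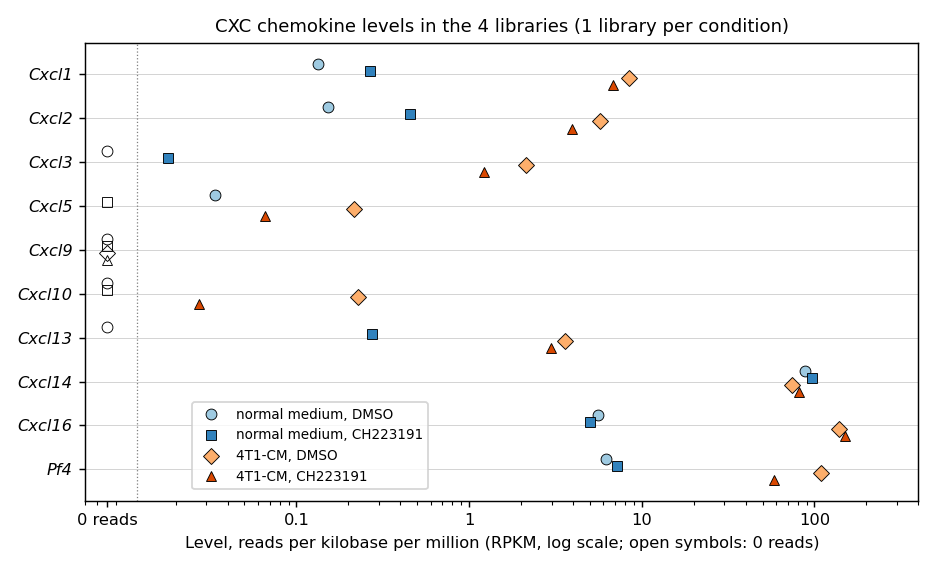
Levels of the 10 CXC chemokines in each library, on a logarithmic RPKM axis, with 1 symbol per library and open symbols at the left for 0 reads. Cxcl14 lies between 74.5 and 97.0 in the 4 libraries, while Cxcl16 lies at 5.02 and 5.61 in normal medium and at 138 and 150 in 4T1-CM.

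**Figure D2:**
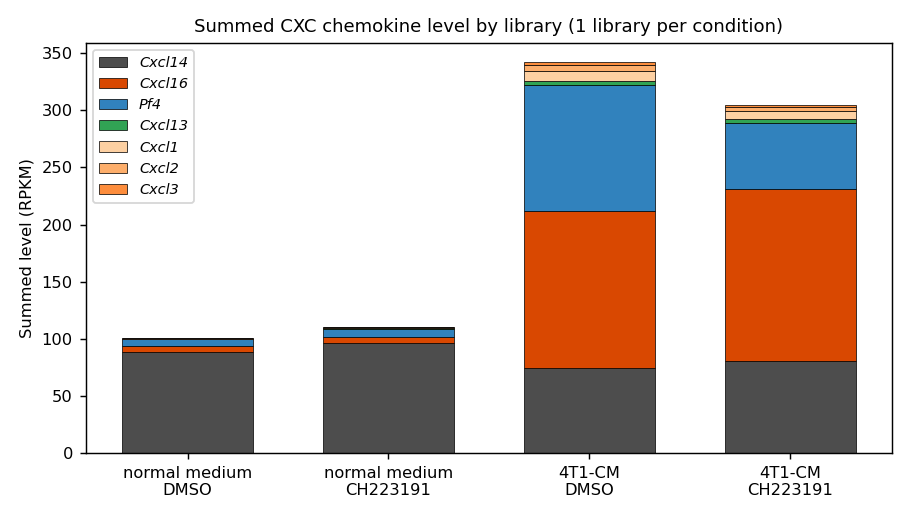
Stacked levels of the 7 CXC chemokines tested, in RPKM from 0, with 1 bar per library. Cxcl14 fills most of both bars of normal medium, and Cxcl16 and Pf4 make up the greater part of both bars of 4T1-CM.

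A pair of single libraries allows no test. The log2 ratio of 2 libraries was taken after TMM scaling and a prior count of 0.5, with an exact Clopper-Pearson 95% interval of how a gene's reads divide between them, and a gene was called at 2-fold or more. 4T1-CM was compared with normal medium in each inhibitor arm, in pairs that share no library. 6 of the 7 members tested were called higher with DMSO, where 12.2% of all genes tested were called higher and 6.12% lower. The same 6 members, Cxcl1, Cxcl2, Cxcl3, Cxcl13, Cxcl16 and Pf4, were called higher with CH223191, where 12.0% of all genes were called higher and 7.87% lower. No member was called lower. The median log2 ratio of the 7 members was 4.62 with DMSO, with Cxcl3 and Cxcl13 at the lowest ratio their 0 reads allow, and 3.33 with CH223191, against 0.01 and 0.02 over all genes tested. Cxcl1, Cxcl3 and Cxcl13 had fewer than 10 reads in both normal-medium libraries, so they passed the filter only through 4T1-CM and had to differ, and only Cxcl14, Cxcl16 and Pf4 reached 10 reads in all 4 libraries.

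An additive fit of medium and inhibitor over the 4 libraries gave the only p-values. It treats any difference in response between the arms as error and leaves 1 residual degree of freedom. In this fit 6 of the 7 members passed an adjusted p of 0.05 for higher counts with 4T1-CM by the quasi-likelihood test of edgeR. The Benjamini-Hochberg adjustment was over all genes, among which 16.4% were called higher and 16.3% lower. The same 6 passed by DESeq2, which called 1208 of the 13715 genes higher and 1244 lower. Cxcl1, Cxcl3 and Cxcl13 passed the read filter only through 4T1-CM, so the filter itself favoured their calls. Their p-values given below carry the same limit. With the filter applied to each of the 4 libraries, Cxcl14, Cxcl16 and Pf4 were left, and 2 of them were called higher. Under that filter 2048 of 11765 genes were called higher and 2085 lower.

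Among the neutrophil attractants with Glu-Leu-Arg, Cxcl1 had 4 and 8 reads in normal medium, against 278 and 208 in 4T1-CM. Its log2 ratio of 4T1-CM to normal medium was 5.82 in the DMSO arm (4.61 to 7.87) and 4.59 in the CH223191 arm (3.66 to 5.90), and the additive effect was 5.22 (edgeR adjusted p = 9.7e-07). Both libraries of 4T1-CM were far above both of normal medium. Cxcl2 had 5 and 15 reads in normal medium and 207 and 132 in 4T1-CM. Its log2 ratio was 5.10 in the DMSO arm (3.99 to 6.87) and 3.06 in the CH223191 arm (2.33 to 3.98), with an additive effect of 3.96 (edgeR adjusted p = 3.15e-05).

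Cxcl3, the near copy of Cxcl2, had 0 reads and 1 read in normal medium and 130 and 69 in 4T1-CM. With DMSO this is at least 39.5-fold higher, set against a floor of 3 reads per library, and with CH223191 the log2 ratio to the single read was 5.50 with an interval from 3.55 to 11.40. Its adjusted p in the additive fit of edgeR was 1.05e-05. Cxcl5, which carries Glu-Leu-Arg as well, had 1, 0, 7 and 2 reads in the 4 libraries and was not tested. Cxcl1, Cxcl2 and Cxcl3 had few reads or none in normal medium, and together with Cxcl5 they went from 0.342% and 0.757% of the reads of the 10 genes to 5.29% and 3.77%.

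The DNA before the starts of Cxcl1, Cxcl2 and Cxcl3 is shown because these 3 genes moved together. The sequences are those of RefSeq on GRCm38.p6, forward strand, from 110 to 31 bases before the RefSeq start of each gene, and capitals mark matches on either strand to a kB-like motif, spelled GGG, any 3 bases and TTCC. Cxcl1 is chr5:90891135-90891214, Cxcl2 is chr5:90903789-90903868 and Cxcl3 is chr5:90785991-90786070.
Cxcl1: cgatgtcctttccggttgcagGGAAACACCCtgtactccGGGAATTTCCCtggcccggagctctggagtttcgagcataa
Cxcl2: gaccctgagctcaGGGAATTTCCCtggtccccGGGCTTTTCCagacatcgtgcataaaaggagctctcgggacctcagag
Cxcl3: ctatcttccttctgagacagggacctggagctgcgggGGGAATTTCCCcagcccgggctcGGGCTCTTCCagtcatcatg
The longest run of bases common to the 3 stretches was GGGAATTTCCC, which begins 71 bases before the start in Cxcl1, 97 bases in Cxcl2 and 73 bases in Cxcl3 and contains a kB-like match on each strand. It occurred in 14 of 32851 RefSeq promoters of 300 bases (0.0426%), counting both strands. The run was found by comparing genes already known to be close copies, so its presence in all 3 is a description of them.

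Promoters of 8 of the 10 members were in the RefSeq table, those of Cxcl5 and Cxcl16 not being among them, and 5 motifs were searched on both strands in the 300 bases of each. The kB-like motif was found in Cxcl1, Cxcl2, Cxcl3 and Cxcl10, and in 5.56% of all promoters. An ISRE-like motif, the element of interferon-activated factors, spelled GAAA, any 2 bases and GAAA, was found in Cxcl10 and Cxcl14, and in 3.44% of all promoters. The core of the AHR-binding element, GCGTG, was found in Cxcl2, Cxcl10, Cxcl13 and Cxcl14, and in 32.4% of all promoters. The GAS motif TTCNNNGAA was found in Cxcl14 and in 8.30% of all promoters, and the AP-1 motif TGANTCA in Cxcl9 and Cxcl10 and in 7.81%. The 300 bases run past the RefSeq start, and the AP-1 match of Cxcl9 begins 31 bases after it. Matches of these letters are not measured binding.

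Cxcl16 was the member with the most reads in 4T1-CM. The reads were 270 and 241 in normal medium against 7287 and 7346 in 4T1-CM, so that the inhibitor libraries of each medium lay beside their DMSO libraries. Its log2 ratio was 4.62 (4.44 to 4.80) with DMSO and 4.90 (4.71 to 5.09) with CH223191, which are 24.5-fold and 29.8-fold, and its additive effect was 4.76 (edgeR adjusted p = 1.05e-08). Cxcl16 overlaps Zmynd15, a gene of the opposite strand, by 552 bases, and 16.9% of its 50-base stretches also occur in that gene. Zmynd15 had 6, 9, 396 and 373 reads in the 4 libraries, and since it is not stated whether the strand was used in counting, reads of the overlap cannot be told apart. The proteases that release CXCL16 were already expressed in normal medium: Adam10 had 2207, 2067, 2704 and 2540 reads and Adam17 had 3186, 2589, 5978 and 5138. Adam17 rose with 4T1-CM in the additive fit (log2 effect 0.87, edgeR adjusted p = 0.000553), and the effect on Adam10 was 0.21 (adjusted p = 0.217). The receptor gene Cxcr6 had 0, 0, 1 and 0 reads.

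Pf4 had 71 and 82 reads in normal medium, against 1386 and 685 in 4T1-CM. Its response on the log2 scale was 4.14 (3.81 to 4.52) with DMSO and 3.02 (2.70 to 3.38) with CH223191, and the additive effect was 3.59 (edgeR adjusted p = 1.38e-06). Both 4T1-CM libraries lay far above both of normal medium, and of the 2 the one with CH223191 was the lower, at 8.13-fold over its own control against 17.7-fold with DMSO. Pf4 was at 4.45, 5.16, 79.2 and 42.2 CPM in the order of conditions. Of the platelet and megakaryocyte markers, Gp9 and Gp1bb were at 0 reads in every library, Treml1 had 29, 30, 29 and 33 reads, and Itga2b had 4, 2, 10 and 15 reads, higher in both 4T1-CM libraries (edgeR adjusted p = 0.0952). Their part in the Pf4 values was not tested. Ppbp, another platelet CXC ligand beside Pf4 on chromosome 5, had 0, 0, 11 and 2 reads.

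Cxcl13, the B cell attractant, had 0 and 5 reads in normal medium and 72 and 56 in 4T1-CM. With DMSO it was at least 21.9-fold higher in 4T1-CM, over the floor of 3 reads, and with CH223191 its log2 ratio was 3.33 (2.15 to 5.13). The adjusted p of the additive fit was 0.000428 by edgeR and 0.0437 by DESeq2.

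Cxcl14 was the member that did not respond in the same way. Normal medium gave 2576 and 2817 reads, and 4T1-CM gave 2384 and 2408. The log2 ratios were -0.25 (-0.33 to -0.17) with DMSO and -0.26 (-0.34 to -0.18) with CH223191. Both ratios were well short of 2-fold, and the additive effect of -0.25 did not pass the test (edgeR adjusted p = 0.144).

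The interferon-induced attractants of T cells were scarcely read. Cxcl9 had 0 reads in the 4 libraries. Cxcl10 had 0, 0, 9 and 1 reads, which with DMSO is at least 2.73-fold higher in 4T1-CM over the floor of 3 reads, and it was not tested because no library reached 10 reads. Cxcl11, another ligand of CXCR3, was at 0 in every library too. The promoter of Cxcl10, chr5:92348920-92349109 on the reverse strand of GRCm38.p6, is shown from 220 to 31 bases before the RefSeq start because it carries the ISRE-like and the kB-like letters together (both in capitals), the first at 213 bases and the others at 159 and 104 bases before the start.
Cxcl10: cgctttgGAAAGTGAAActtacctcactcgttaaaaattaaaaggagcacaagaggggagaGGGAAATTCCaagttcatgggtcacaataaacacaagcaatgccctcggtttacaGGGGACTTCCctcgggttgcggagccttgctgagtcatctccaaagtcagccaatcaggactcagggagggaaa
Other genes of the interferon pathway were read well. Irf7, a transcription factor of the interferon response, had 225, 330, 2954 and 2132 reads and rose with 4T1-CM in the additive fit (log2 effect 3.11, edgeR adjusted p = 1.35e-06). Irf1 stayed between 315 and 350 reads, and Ifnb1 and Ifng, which encode interferons, had 0 reads throughout.

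**Figure D3:**
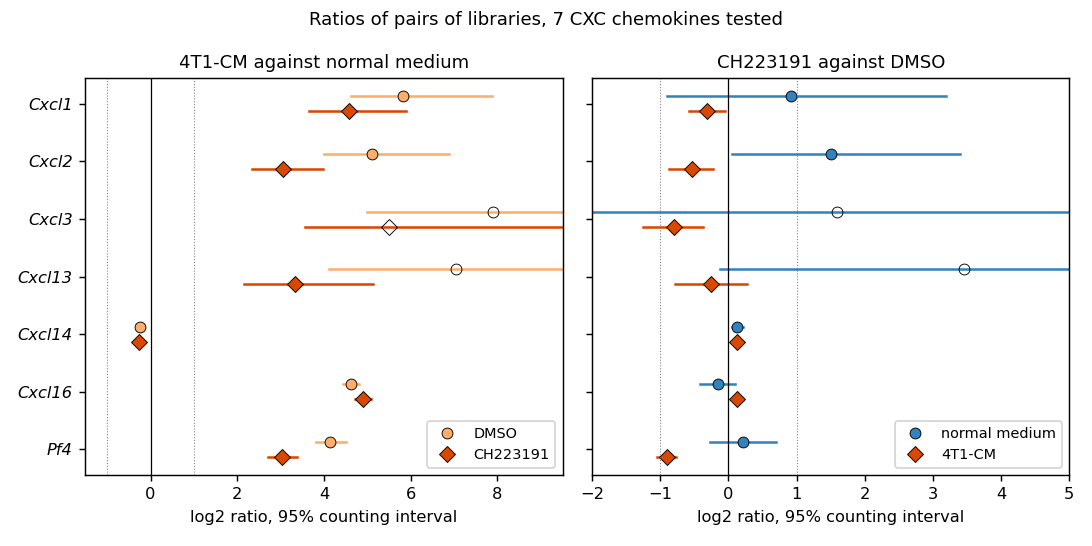
Log2 ratios of the 7 CXC chemokines tested for the 4 comparisons, with exact 95% intervals of counting error. Open symbols mark ratios in which a library had 3 reads or fewer, lines that reach the edge continue beyond it, and dotted lines mark 2-fold. On the left 6 genes lie above 2-fold in both arms and Cxcl14 lies at -0.25 and -0.26. On the right Pf4 in 4T1-CM lies at -0.91.

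CH223191 was then compared with DMSO within each medium. In 4T1-CM none of the 7 members was called in either direction, where 2.80% of all genes were called higher and 2.62% lower. The median of the members was -0.31, against 0.00 over all genes. Pf4 had the lowest ratio, 685 reads against 1386, a log2 ratio of -0.91 (-1.04 to -0.78). Cxcl3 followed at -0.80 (-1.25 to -0.37), Cxcl2 at -0.54 (-0.87 to -0.22) and Cxcl1 at -0.31 (-0.58 to -0.05). The intervals of these 4 genes lay below 0 as far as counting error goes, and that of Cxcl13, at -0.25 (-0.79 to 0.27), did not. Cxcl14 and Cxcl16 were both at 0.12, with intervals of 0.04 to 0.20 and 0.07 to 0.17. With a single library per condition the spread between cultures is unknown, so none of these differences can be set against it.

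Outside 4T1-CM, in normal medium, 3 of the 7 members were called higher with CH223191 and none lower, where 4.84% of all genes were called higher and 3.31% lower. The 3 calls rested on few reads: Cxcl2 had 15 against 5, Cxcl13 had 5 against 0 and Cxcl3 had 1 against 0. Cxcl2 had a log2 ratio of 1.498 with an interval of 0.06 to 3.40, Cxcl13 was at least 1.67-fold higher over the floor, and for Cxcl3 no fold is given. The better-read genes differed little. Pf4 had a log2 ratio of 0.21 (-0.26 to 0.69), Cxcl16 of -0.16 (-0.42 to 0.10) and Cxcl14 of 0.13 (0.05 to 0.21).

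Across both media, the additive fit of edgeR called none of the 7 members for the inhibitor. DESeq2 called none either, but it gave no adjusted p for Cxcl3 and Cxcl13. In the same fits 1 member had an unadjusted p below 0.05 by edgeR and 0 by DESeq2, against 881 and 202 of all 13715 genes. That member was Pf4, with a log2 effect of -0.54 (unadjusted p = 0.0338 and adjusted p = 0.762 by edgeR). Over all genes the fit of edgeR called 0.0729% higher and 0.00729% lower with the inhibitor.

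Setting the 2 responses to 4T1-CM side by side, with CH223191 minus with DMSO, showed where the arms parted by more than counting error. The response of Pf4 was smaller with CH223191 by a log2 difference of -1.12 (exact conditional 95% interval -1.62 to -0.62). That of Cxcl2 was smaller by -2.12 (-3.97 to -0.55), with 5 and 15 reads in normal medium behind it. The response of Cxcl16 was larger by 0.28 (0.02 to 0.54). For Cxcl1 the difference was -1.31 with an interval of -3.51 to 0.61, and for Cxcl14 it was -0.01 (-0.12 to 0.10). No interval could be given for Cxcl3 and Cxcl13, which had 0 reads in the DMSO library of normal medium. These intervals leave out the variation between cultures, and the interaction itself could not be tested.

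**Figure D4:**
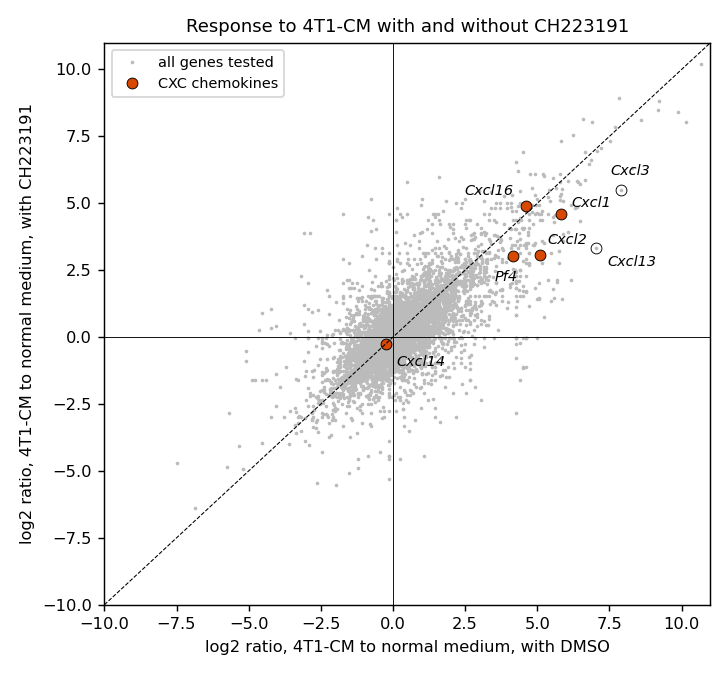
Log2 ratio of 4T1-CM to normal medium with DMSO (horizontal) against that with CH223191 (vertical). Grey dots are all 13715 genes tested, large circles the 7 CXC chemokines, open where a library had 3 reads or fewer, and the dashed line marks equal ratios. Pf4 lies below the line at 4.14 and 3.02, and Cxcl16 just above it at 4.62 and 4.90.

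The genes that surround the chemokines in their pathway were read from lists chosen with earlier results of these data known. Shares over all genes are given beside their counts for scale and are no test of the lists. Of 10 genes of NF-kB signalling and of the decay of chemokine mRNA, 8 rose with 4T1-CM in the additive fit and none fell, where 16.4% of all genes were called higher and 16.3% lower. Nfkbiz, which encodes a nuclear IkB protein, had 50, 35, 1130 and 1081 reads (log2 effect 4.62, edgeR adjusted p = 4.12e-08). Nfkbia, which encodes the inhibitor IkB-alpha, had 267, 268, 1344 and 1258 reads (2.20, adjusted p = 7.96e-07). Zc3h12a, which encodes an RNase that degrades inflammatory mRNAs, had 263, 276, 1826 and 1728 reads (2.64, adjusted p = 1.95e-07). The subunit gene Rela and the decay factor gene Zfp36 were the 2 that did not pass, at 0.25 (adjusted p = 0.146) and 0.31 (adjusted p = 0.0796). None of the 10 was called for the inhibitor, where 0.0729% of all genes were called higher and 0.00729% lower. At an unadjusted p below 0.05 there was 1 by edgeR and 0 by DESeq2, against 881 and 202 of all 13715 genes.

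Of 6 enzymes that cut CXC chemokines, 5 were tested and 3 rose with 4T1-CM, beside the same 16.4% of all genes. Besides Adam17 these were Mmp9, with 738, 822, 7606 and 7463 reads (log2 effect 3.19, edgeR adjusted p = 6.31e-08), and Mmp8, with 35, 21, 2142 and 759 reads (5.54, adjusted p = 1.78e-08). Mmp8, the neutrophil collagenase, was the one gene of these lists that fell with CH223191 in the additive fit (log2 effect -1.27, edgeR adjusted p = 0.0357). Over all genes 0.00729% were called lower. DESeq2 called Mmp8 too (adjusted p = 0.00823), but with total counts edgeR called 0 genes lower for the inhibitor. Mmp12, the macrophage elastase, was far more abundant than any chemokine, at between 110127 and 147853 reads, with a medium effect of -0.30 (adjusted p = 0.0574).

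Among 8 receptors 5 were tested, and 1 was called higher and 1 lower with 4T1-CM, close to the shares of 16.4% and 16.3% over all genes. Cxcr4, the receptor of CXCL12, rose from 1376 and 1434 reads to 4649 and 4518 (log2 effect 1.62, edgeR adjusted p = 6.12e-06). Cxcr2, the receptor of the Glu-Leu-Arg chemokines, had 12, 9, 2 and 0 reads (edgeR adjusted p = 0.036, with no adjusted p from DESeq2), and it reached 10 reads in normal medium with DMSO alone, so it passed the filter only through the medium where it was high. Cxcl12 itself had 16, 14, 2 and 3 reads (adjusted p = 0.0256 by edgeR and 0.178 by DESeq2), and it too passed the filter only through normal medium and had to be lower in 4T1-CM.

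For these 3 members with 10 reads or more throughout (Cxcl14, Cxcl16 and Pf4), the genes of most similar pattern were sought among 8311 genes by the distance between log2 CPM profiles centred over the 4 libraries. For Cxcl16 they were Thbs1 (615, 590, 16561 and 15619 reads, distance 0.144), Nfkbiz (0.280) and Aoah (0.350). For Pf4 they were Ptges (116, 137, 1770 and 1421 reads, distance 0.496), Pilra (0.521) and Slc6a12 (0.523), so its nearest neighbour was further off than any of the 3 of Cxcl16. For Cxcl14 they were Zfyve21 (0.0200), Terf2 (0.0211) and Eef2 (0.0222).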

How the data were processed

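The table that the authors deposited holds raw read counts, as whole numbers and without normalization, with gene lengths and coordinates. Per the labels, RNA was extracted with TRIzol and libraries were made with a NEBNext Ultra kit. The submitters' processing notes name HISAT2 2.0.5 and DESeq2. The study's methods name featureCounts as the counter for its alveolar macrophage libraries. Which counter was run on the peritoneal libraries, whether it used strand, and the genome build are not given in the sources used here. The deposited gene lengths, used for RPKM, can include retained introns, as for Cxcl1, Cxcl2 and Cxcl3, whose lengths equal their spans.

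The members and lists were chosen with earlier results of these data known. The text names all 10 members, genes of the lists on which a result turns, and the 3 genes nearest in pattern to each member that reached 10 reads throughout. The motifs and the promoters shown were chosen after the read counts had been seen, and the shared run after the promoters had been read. Counts were scaled with TMM (edgeR 4.0.16 in R 4.3.3). The filter of 10 reads in at least 1 library left 13715 genes. The additive fit used glmQLFit and glmQLFTest of edgeR on ~ medium + inhibitor, with Benjamini-Hochberg adjustment over all genes and a threshold of 0.05, and DESeq2 1.42.0 was its alternative. The other alternatives were DESeq2 size factors, total counts, no filter, a filter of 10 reads in all 4 libraries, a prior count of 5 and, chosen after seeing the data, a prior count scaled by library size. A ratio was planned to be left out wherever a library had 3 reads or fewer. Such ratios are given here with their counting interval at 1 to 3 reads, or as a bound at 0. Some genes of the lists, and the counts over the lists that hold them, are not reported here. Scripts were tested on simulated data. Of gene names listed more than once, 103 entries were named by identifier. Ratios, intervals, motif searches and figures were computed with Python 3.11.15, numpy 2.4.6, pandas 2.3.3, scipy 1.17.1 and matplotlib 3.10.9.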

Additional observations from a re-analysis of the deposited data

Results flagged for a closer look

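In 5 members the library with CH223191 lay on opposite sides of its DMSO library in the 2 media. With 1 library per condition the difference was not tested, and its counting intervals stand in the report where they could be computed. The share of all genes that did the same was not counted, so the number of members is no trait of the chemokines. In normal medium the counting intervals of Cxcl1 (-0.90 to 3.19), Cxcl16 (-0.42 to 0.10) and Pf4 (-0.26 to 0.69) included 0. That of Cxcl2 (0.06 to 3.40) did not. Cxcl1 had a log2 ratio of CH223191 to DMSO of 0.92 in normal medium, on 8 and 4 reads, and -0.31 in 4T1-CM. The corresponding ratios of Cxcl2 were 1.498, on 15 and 5 reads, and -0.54. Cxcl13 was at least 1.67-fold higher with CH223191 in normal medium, on 5 and 0 reads, and its log2 ratio in 4T1-CM was -0.25. The log2 ratio of Cxcl16 in normal medium was -0.16, and it was 0.12 in 4T1-CM. Pf4 had log2 ratios of 0.21 and -0.91. Cxcl3 had too few reads in normal medium for a ratio.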

How the results depend on the processing

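The direction of all 7 members under 4T1-CM, in both arms, was kept under every alternative that could be computed. Under the filter of 10 reads in all 4 libraries, Cxcl14, Cxcl16 and Pf4 remain. Of these, 2 were called higher in each arm, beside 846 (DMSO) and 861 (CH223191) of 11765 genes. The additive fit called 2 higher, beside 2048 genes, and 0 were called higher with CH223191 in normal medium, beside 226. With no filter, 8 members were called higher with 4T1-CM in each arm, beside 4601 (DMSO) and 4358 (CH223191) of 21917 genes. At least 2-fold lower with CH223191 were 1 member in normal medium (Cxcl5) and 2 members in 4T1-CM (Cxcl5 and Cxcl10), all on fewer than 10 reads. Over all genes these numbers were 2260 and 2688. A prior count of 5 gave log2 ratios of 4.62 for Cxcl3 and 3.81 for Cxcl13 with DMSO. With it 2 members in place of 3 were called higher with CH223191 in normal medium, beside 363 of 13715 genes. The inhibitor effect on Cxcl2 turned from -0.17 with edgeR to 0.18 with DESeq2, and neither passed the test. Another scaling moved the median of all genes by at most 0.058.

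Counts over all genes moved with the filter by construction. With no filter, 4T1-CM called 4601 higher and 2587 lower with DMSO and 4358 and 2995 with CH223191, while CH223191 called 2815 and 2260 (normal medium) or 2583 and 2688 (4T1-CM). In the same order, the filter on all 4 libraries gave 846 and 503, 861 and 683, 226 and 89, and 83 and 52. A prior count of 5 gave 363 and 168 for CH223191 without 4T1-CM, and 183 and 139 with it. In the additive fit DESeq2 called 1208 higher and 1244 lower for the medium against 2246 and 2231 by edgeR. For the inhibitor edgeR called 10 and 1, and DESeq2 14 and 1, against 162 and 31 by edgeR with no filter and 0 and 0 with total counts, and the cause was not tested. The prior count scaled by library size gave 377 and 365 against 384 and 359 for CH223191 in 4T1-CM and changed no member's call. No paired analysis was possible because the groups share a single replicate number, with 1 library in each. The additive fit already compares the media within each inhibitor arm.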
